A study of Mus musculus with 3 samples.

Results

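Promyelocytes are the bone marrow precursors in which the primary, or azurophilic, granules of the neutrophil are filled. The cells described here are 1621 of 26898 kept barcodes from a single-cell RNA sequencing study of the mouse intervertebral disc. They were chosen from the measured counts. Barcodes were kept if they had 500 genes or more and took no more than 15% of their unique molecular identifiers (UMIs) from mitochondrial genes. A member had at least 1% of its UMIs from Elane, Mpo, Prtn3 and Ctsg together and under 1% from Camp, Ngp and Ltf together. These 7 genes therefore describe the members and test nothing.

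The study has 1 group. Whole lumbar, thoracic and caudal discs were taken from untreated shh-cre:R26R-tdTomato mice at postnatal day 30, digested with collagenase and enriched for tdTomato fluorescence by sorting. All animals carried the Cre driver and the reporter, which marks cells that express Shh and their descendants, so no library lacks either allele. The 3 libraries are replicates, each a pool of litter-matched animals and each a replicate sequencing batch by the labels. A p-value here sets a difference between groups of cells within a pool against the spread of that difference over the pools tested. With at most 3 pools, that spread was estimated for each gene with help from the other genes tested. A very small p-value therefore does not rest on the gene's own spread alone.

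Neutrophils build their granules in a fixed order. Promyelocytes make the primary granule proteins, which are the serine proteases neutrophil elastase (Elane), proteinase 3 (Prtn3) and cathepsin G (Ctsg) and the haem enzyme myeloperoxidase (Mpo), which forms hypochlorous acid. Myelocytes and metamyelocytes then make the secondary granule proteins, among them cathelicidin (Camp), neutrophilic granule protein (Ngp) and lactoferrin (Ltf). The transcription factor C/EBP alpha opens the granulocyte and monocyte path, Gfi1 and C/EBP epsilon lead to the neutrophil, and Irf8 and Klf4 lead to the monocyte.

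The 300-base promoters of the 4 genes that chose the members are shown because these genes were high together in the same cells. Elane lies on chromosome 10 at 79886247-79888215 on the plus strand of mm10, and Prtn3 lies 3072 bases before it on the same strand at 79874476-79883174. Mpo lies on chromosome 11 at 87793581-87804413 on the plus strand, and Ctsg on chromosome 14 at 56099881-56102574 on the minus strand (GENCODE vM21). Each sequence runs 5′ to 3′ on the strand of its gene from 250 bases before the RefSeq start to 50 after it (GRCm38.p6, the assembly of mm10), and all 4 genes had an entry. Capitals mark 3 motifs that a search of both strands found, GAGGAAGT (PU.1-like), AACGG (Myb-like) and ACCACA, the reverse complement of TGTGGT (Runx-like).
Elane, chr10:79886062-79886361, plus strand: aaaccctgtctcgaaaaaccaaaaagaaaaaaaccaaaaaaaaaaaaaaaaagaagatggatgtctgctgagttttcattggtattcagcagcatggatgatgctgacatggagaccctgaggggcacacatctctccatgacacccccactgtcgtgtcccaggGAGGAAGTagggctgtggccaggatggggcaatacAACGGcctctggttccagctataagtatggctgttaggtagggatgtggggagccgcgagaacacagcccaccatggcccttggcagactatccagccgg
Prtn3, chr10:79879417-79879716, plus strand: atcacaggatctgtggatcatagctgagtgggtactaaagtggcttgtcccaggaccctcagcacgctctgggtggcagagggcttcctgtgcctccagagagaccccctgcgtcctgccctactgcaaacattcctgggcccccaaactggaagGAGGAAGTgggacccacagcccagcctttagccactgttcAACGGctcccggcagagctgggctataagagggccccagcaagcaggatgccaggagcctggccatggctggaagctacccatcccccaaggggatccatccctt
Mpo, chr11:87793534-87793833, plus strand: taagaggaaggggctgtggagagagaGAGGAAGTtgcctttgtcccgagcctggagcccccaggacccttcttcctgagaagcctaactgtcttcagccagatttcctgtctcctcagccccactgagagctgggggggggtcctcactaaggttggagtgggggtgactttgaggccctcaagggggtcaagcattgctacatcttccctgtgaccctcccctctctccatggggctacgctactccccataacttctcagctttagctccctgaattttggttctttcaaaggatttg
Ctsg, chr14:56102525-56102824, minus strand: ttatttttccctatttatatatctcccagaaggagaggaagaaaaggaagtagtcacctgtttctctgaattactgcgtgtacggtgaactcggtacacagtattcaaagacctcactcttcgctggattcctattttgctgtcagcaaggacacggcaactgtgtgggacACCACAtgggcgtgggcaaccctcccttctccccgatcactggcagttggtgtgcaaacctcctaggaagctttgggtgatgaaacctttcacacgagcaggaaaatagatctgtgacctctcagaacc
GAGGAAGT stands in the Elane, Prtn3 and Mpo windows and not in that of Ctsg, and 3.20% of 32851 mouse promoters of the same length hold it on either strand. AACGG stands in the Elane and Prtn3 windows, against 17.5% of all promoters. TGTGGT stands in the Ctsg window alone of the 4, against 16.8% of all promoters. TTGCNNAA (C/EBP-like) is in none of the 4 windows, against 10.8% of all promoters. A match describes letters and shows no binding.

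Libraries 1, 2 and 3 held 64695292, 145925353 and 137188648 UMIs on 7430, 11767 and 11032 barcodes, of which 5732, 10792 and 10374 were kept. Members numbered 308, 544 and 769 in libraries 1, 2 and 3. That is 5.37% (95% exact binomial interval 4.80 to 5.99), 5.04% (4.64 to 5.47) and 7.41% (6.92 to 7.93) of the kept barcodes, with a mean of 5.94% ± 1.28 (SD, n = 3). The interval of library 3 lies above those of libraries 1 and 2, and the intervals cover counting error only. Members were large in RNA. Their median depth was 28366, 36580 and 33563 UMIs, against 6172.5, 8237.5 and 7901 in all other kept barcodes. Their median number of genes was 4701, 5108.5 and 4992, against 1826, 2045.5 and 2001. Predicted doublets, whose number per library was set in advance by a preset rate, were kept. They made up 9.81% of members, against 8.36% of all other kept barcodes. Shh had 0 UMIs in the members, so the gene whose promoter drives the Cre was not detected in them.

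Granule gene transcripts were also counted in cells that should lack them. B lineage-like cells, with at least 3 UMIs of Cd79a and Cd79b, averaged 46.5 CPM of Elane, where CPM is UMIs per 1000000 UMIs of a gate, 61.2 of Mpo, 83.3 of Prtn3 and 42.9 of Ctsg. A UMI of Elane was seen in 99.5% ± 0.40 of members and 19.4% ± 6.67 of B lineage-like cells (SD, n = 3), whose median depth was 2922, 4056.5 and 2865 UMIs in libraries 1, 2 and 3. With every cell thinned to 2000 UMIs the shares were 98.2% and 8.98%. For S100a8, the most abundant cytosolic product of maturing neutrophils with its partner S100a9, the shares were 99.1% of members and 91.5% of B lineage-like cells, so a UMI of S100a8 alone does not mark a member. Libraries 2 and 3 shared 224 barcodes before the filter, of which 34 were kept in both and 2 were members in both. Members whose barcode recurs had far fewer UMIs in the other library: 80 members of library 3 had a median of 54673 UMIs there and 593.5 in library 2. With every shared barcode removed, 5838 genes were called against both-granule cells, defined next, in place of 5839.

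The members were set against 3 other gates of the same libraries. Both-granule cells met the 1% threshold for the primary and the secondary granule genes and numbered 566. Kit Cd34 progenitors were under both thresholds, had UMIs of Kit, Cd34 and Ptprc, at least 3 of Kit, Cd34 and Flt3 together, and none of Cdh5, Cpa3, Klf1 and Ebf1, and numbered 152. Monocyte-like cells were under both thresholds, had at least 5 UMIs from at least 3 of F13a1, Ms4a6c, Ccr2 and Csf1r and under 3 of C1qa, C1qb and C1qc together, and numbered 1800. In the plot of the rule, these thresholds cut a plane of primary against secondary granule share.

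**Figure D1:**
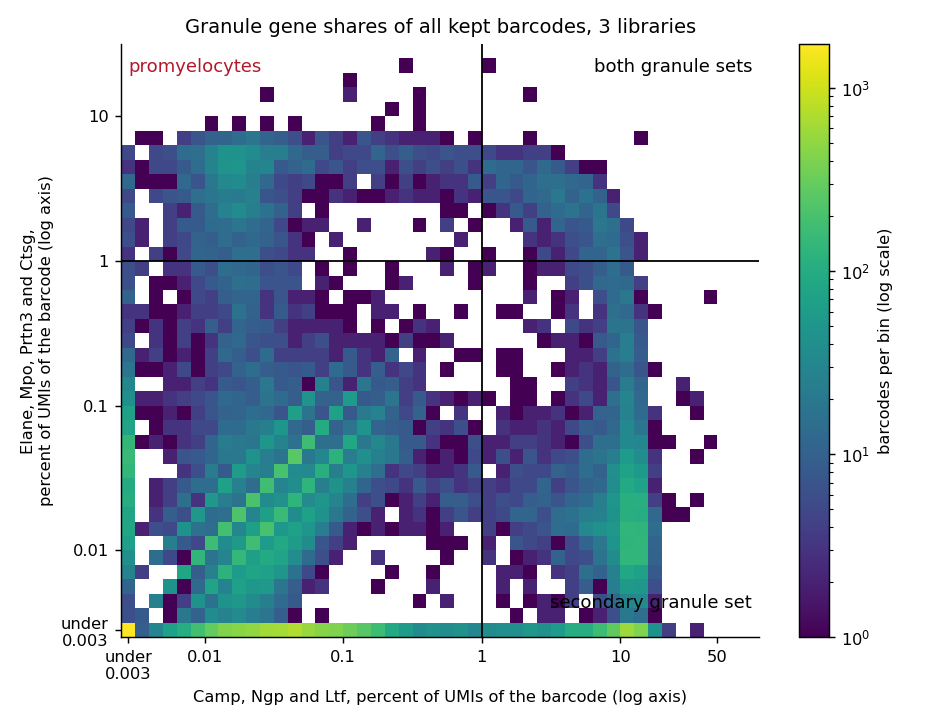
Kept barcodes binned by the percent of their UMIs from Camp, Ngp and Ltf (horizontal axis, log scale) and from Elane, Mpo, Prtn3 and Ctsg (vertical axis, log scale), with barcodes under 0.003% drawn in the lowest row or column and lines at 1%. The 1621 members fill the upper left, the 566 both-granule cells the upper right and the 5908 secondary-granule cells the lower right.

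The 4 genes took a median of 3.71%, 3.11% and 4.54% of a member's UMIs in libraries 1, 2 and 3, with a range over cells of 1.00% to 21.3%. A UMI of all 4 genes was seen in 1610 of the 1621 members, and 5 members had UMIs of only 1 or 2 of them. Near the threshold, 72 members had a 4-gene share of 1 to 1.2%, and 88 barcodes with low secondary share had 0.8 to 1% and were left out. The secondary granule side was sparse: the 3 genes took a median of 0.027%, 0.015% and 0.019% of UMIs, 33 members had none, and 20 members had 0.8 to 1%.

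Elane stood at 10260, 9214 and 13640 CPM in the summed members of libraries 1, 2 and 3. It was close to that in both-granule cells, at 8367, 9778 and 13080. Ctsg stood at 6234, 6919 and 6995 in members and 1980, 2243 and 2077 in both-granule cells, so the ratio of the proteases differs between these gates. Mpo averaged 8302 ± 1471 in members and 4346 in both-granule cells, and Prtn3 12180 ± 1513 and 9109 (SD, n = 3). In cells that held the secondary granule genes only, Elane averaged 312.9, Mpo 76.5, Prtn3 388.9 and Ctsg 34.8, of which Mpo and Ctsg lie near the level in B lineage-like cells. Progenitors already held some of these transcripts, with 967.2 of Mpo, 1076 of Prtn3 and 573.9 of Ctsg, against only 87.8 of Elane. All of these are description, since the genes set the gates.

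Among member cells the 4 genes followed each other to different degrees. As a description over 308, 544 and 769 cells that share a library and a rule, the Spearman correlation of Elane with Prtn3 was 0.81, 0.87 and 0.82. For Elane with Ctsg it was 0.66, 0.61 and 0.56, and for Elane with Mpo 0.62, 0.72 and 0.64. Each of these was computed on shares of a cell's UMIs. Elane and Prtn3, the neighbours on chromosome 10, had the highest coefficient of the 6 pairs in every library.

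The genes whose pattern was most like that of the rule genes were ranked by the log2 ratio of members to all other kept barcodes, over 3 libraries and with at least 100 CPM in members. Cst7 came first at 198.8 in members and 12.9 in the rest (log2 ratio 3.95). Cst7 encodes cystatin F, an inhibitor of the protease that activates the granule proteases. It was followed by Nkg7 (3.63), a granule membrane protein also known from cytotoxic lymphocytes, Ms4a3 (3.54), a membrane protein of granulocyte and monocyte progenitors, and Prss57 (3.37), a further serine protease of the same family. Then came Gstm1, Plac8, Sdf2l1, Alas1, Atp8b4 and Srgn at 3.29 down to 2.44. These ratios are a description with no test.

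**Figure D2:**
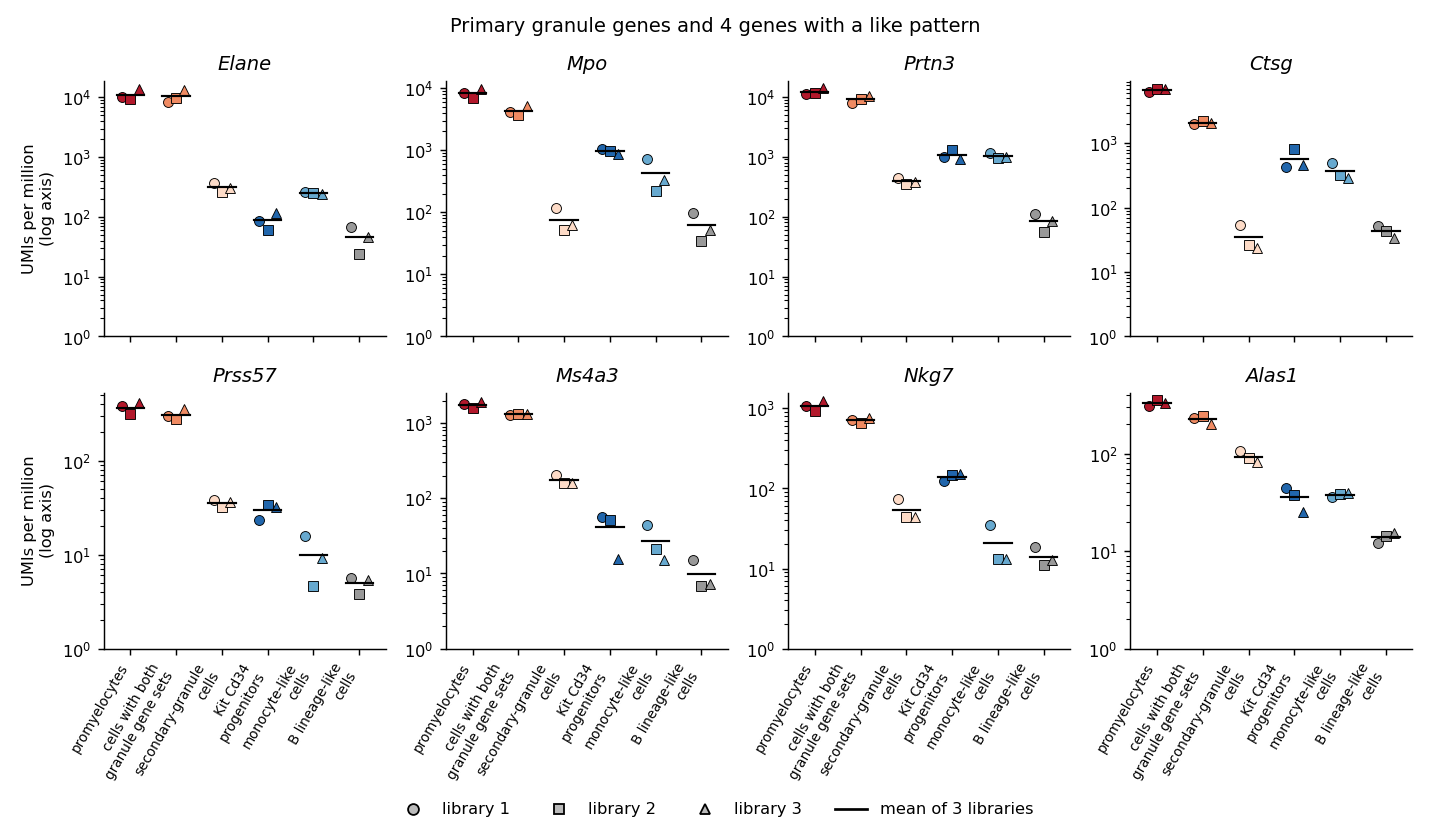
CPM (log axis) of the 4 rule genes and of Prss57, Ms4a3, Nkg7 and Alas1 in members, both-granule cells, secondary-granule cells, progenitors, monocyte-like cells and B lineage-like cells, with a point for each of the 3 libraries and a line at their mean. Ms4a3 lies between 1581 and 1891 in the members and at or under 57.2 in progenitors and monocyte-like cells.

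Tests used UMIs summed per library and gate, with the library as a block and without the 7 rule genes, in edgeR (quasi-likelihood F test, p adjusted by the Benjamini-Hochberg method). A gene is called at an adjusted p under 0.05. Of the genes tested, 54.6% were called against both-granule cells (27.5% higher and 27.1% lower in members), 31.8% against progenitors (16.8% and 15% on the same sides) and 58.5% against monocyte-like cells (28.8% and 29.7%). The 3 comparisons share the members. A gene that follows the rule genes, or the genes that define the other gate, across cells differs in part because of how the gates were cut. Levels are CPM. Log2 fold changes, members over the other gate, are on the scale of edgeR's TMM normalization, on which the median gene lies near 0. Without it, the median gene would lie at 0.34 against both-granule cells, −0.19 against progenitors and −0.12 against monocyte-like cells, so a change smaller than these can look different in the levels. Of the genes called against both-granule cells, 489 have the other sign on the plain scale, as do 22 against progenitors and 0 of the 6844 called against monocyte-like cells.

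The cargo of the primary granule beyond the rule genes set members apart from progenitors. All 10 listed genes of protease processing and cargo were higher in members (median log2 fold change 2.77). Ms4a3 stood at 1813, 1581 and 1891 CPM in members of libraries 1, 2 and 3, against 57.2, 51.5 and 15.4 in progenitors, a log2 fold change of 5.67 (SE 0.27, adjusted p = 1.84e-07). Prss57 stood at 376.4, 311.6 and 412.7 in members, against 23.3, 33.6 and 31.9 in progenitors (3.80, SE 0.16, adjusted p = 8.08e-08). No library of the members overlapped a library of the progenitors for either gene. Srgn, the proteoglycan core on which the proteases are stored, averaged 3343 ± 526.8 in members and 894.4 ± 96.2 in progenitors. Cd63, a tetraspanin of the primary granule membrane, averaged 711.9 ± 78.7 and 81.7 ± 10.5 in the same order of gates. The smallest changes of the list were those of Lyz2, lysozyme, at 0.76, and of Ctsc, the protease that activates the granule proteases, at 0.77. Without the members that held monocyte or basophil genes, a subset described further on and chosen after the values were seen, 8 of the 10 were called higher, and Lyz2 had 0.03 and Ctsc −0.29 (adjusted p = 0.93 and 0.21).

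Against both-granule cells the same list split. Ctsc, Srgn and Cst7 were higher in members, and Cd63, Rab27a, Lyz2, Fcnb and Hp were lower. Ctsc stood at 31.0, 77.8 and 72.4 CPM in members, against 15.1, 25.6 and 18.4 in both-granule cells (log2 fold change 1.31, SE 0.13, adjusted p = 4.04e-05). Library 1 was the lowest in each gate, and its member value lay above every both-granule value. Without the members with monocyte or basophil genes the change of Ctsc was 0.25 (adjusted p = 0.092). Fcnb, ficolin B, a lectin that binds microbes, stood at 283.3, 225.6 and 345.7 in members, against 1290, 1512 and 1861 in both-granule cells (−2.79, SE 0.095, adjusted p = 1.31e-07). Ms4a3 and Prss57 did not pass the test (0.09 and −0.09, adjusted p = 0.145 and 0.150). Hp, haptoglobin, which binds free haemoglobin, was lower by the test at −1.53, with means of 564.9 ± 90.3 in members and 1289 ± 215.6 in both-granule cells.

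Against monocyte-like cells, 6 of the 10 were higher and 2 lower. Nkg7, which is in another list, stood at 1081, 924.2 and 1225 CPM in members, against 35.1, 13.3 and 13.3 in monocyte-like cells (log2 fold change 6.05, SE 0.31, adjusted p = 2e-05). Ms4a3 had the largest change of any gene named by the rule for this comparison, 6.33 (SE 0.32, adjusted p = 1.88e-05). The lower genes were Lyz2 and Ctsc. Lyz2 stood at 310.6, 738.3 and 552.3 in members, against 10770, 22150 and 21300 in monocyte-like cells (−4.98, SE 0.091, adjusted p = 2.93e-06). Ctsc averaged 60.4 ± 25.6 in members and 436.2 ± 141.7 in monocyte-like cells. The lysosomal hydrolases that primary granules also carry differed in direction between the comparisons. Against both-granule cells 3 of 10 were higher and 5 lower, where 27.5% and 27.1% of all genes tested were. Against progenitors 6 were higher and none lower, where 16.8% and 15% of all genes were. Against monocyte-like cells 1 was higher and 7 lower, where 28.8% and 29.7% of all genes were.

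Of the haem synthesis genes, Alas1 encodes the first and rate-limiting enzyme of the path in cells other than erythroid cells. Alas1 stood at 310.2, 353.0 and 329.4 CPM in members of libraries 1, 2 and 3. The values were 44.7, 37.3 and 25.3 in progenitors and 36.2, 38.3 and 40.0 in monocyte-like cells. The groups did not overlap in either case, with log2 fold changes of 3.49 (SE 0.16, adjusted p = 1.53e-07) and 3.24 (SE 0.085, adjusted p = 4.24e-06). Against both-granule cells, at 230.7, 245.6 and 200.2, the change was 0.22 (SE 0.055, adjusted p = 0.00866). Of the 8 enzymes of the path, 4 were higher than in progenitors and 3 than in monocyte-like cells, Alas1 among them each time, with none lower in either. Among all genes tested 16.8% and 28.8% were higher in the same order, so the count against monocyte-like cells is near that share. Against both-granule cells Alas1 was the only enzyme higher and Ppox the only enzyme lower (−0.66), fewer than the 54.6% called among all genes.

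The folding machinery of the endoplasmic reticulum, through which granule proteins pass, was higher in members than in each other gate. Against both-granule cells 18 of 20 listed genes were higher and 1 lower (median log2 fold change 0.58), against progenitors 19 were higher and none lower (1.22), and against monocyte-like cells 19 and none (1.03). Calr, the chaperone calreticulin, which binds the precursor of myeloperoxidase, stood at 1446, 1356 and 1543 CPM in members. It stood at 461.9, 467.2 and 519.8 in both-granule cells, 726.1, 556.2 and 581.2 in progenitors and 424.1, 257.8 and 302.2 in monocyte-like cells. No member library overlapped any of these, and the log2 fold changes were 1.25 (SE 0.037, adjusted p = 7.72e-08), 1.47 (SE 0.090, adjusted p = 1.15e-06) and 2.30 (SE 0.14, adjusted p = 4.33e-05).

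Hspa5, the chaperone BiP, averaged 1145 ± 225.7 in members, 571.0 ± 176.3 in both-granule cells, 670.7 ± 320.2 in progenitors and 465.6 ± 163.8 in monocyte-like cells. In every gate library 1 was the highest for Hspa5, and progenitors of library 1, at 1037, lay above the lowest member library, at 984.3. Sdf2l1, a partner of BiP, stood at 422.9, 472.8 and 369.0 in members, against 94.8, 142.4 and 98.9 in progenitors (2.14, SE 0.11, adjusted p = 4.49e-07). Xbp1, the transcription factor that induces many of these genes, was the gene lower than in both-granule cells, at −0.15 (adjusted p = 0.034). Its levels ran the other way, 124.4 ± 6.42 in members and 109.1 ± 2.21 in both-granule cells, so this sign depends on the scale. Atf4, which regulates genes of the amino acid and folding stress response, was not called in any of the 3 comparisons.

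Nucleolar and ribosome assembly genes separated members from the later and the monocyte cells but hardly from progenitors. All 16 were higher than in both-granule cells (median log2 fold change 1.04) and all 16 were higher than in monocyte-like cells (1.31), while 4 were higher than in progenitors and none lower (0.08). Npm1, nucleophosmin, stood at 2230, 2346 and 2236 CPM in members, against 785.0, 802.6 and 719.9 in both-granule cells (1.23, SE 0.028, adjusted p = 2.05e-08). Gnl3, nucleostemin, stood at 109.7, 135.2 and 125.9 in members, against 32.1, 36.8 and 33.5 in both-granule cells (1.52, SE 0.054, adjusted p = 1.59e-07). The groups did not overlap for either gene. Against progenitors Npm1 had −0.03 and Gnl3 −0.12, neither called. The 4 higher there were Pa2g4, Rrs1, Wdr12 and Nhp2, at 0.29 to 0.74. Myc, which drives this programme in many cells, stood at 76.4, 72.0 and 59.7 in members, against 13.3, 19.3 and 14.2 in both-granule cells (1.76, SE 0.11, adjusted p = 2.72e-06), and was not called against progenitors (−0.16).

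The cell cycle differed between gates in its phases. All 19 mitosis genes were lower in members than in both-granule cells (median log2 fold change −0.58), and 10 of 19 S phase genes were lower with 1, Ung, higher. On the plain CPM scale, 2 of the mitosis genes (Aurkb and Ccnb1) and 4 of the S phase genes (Mcm4, Mcm5, Mcm7 and Uhrf1) have the other sign. Mki67, a proliferation marker, stood at 121.7, 153.4 and 152.6 CPM in members, against 211.6, 231.4 and 231.5 in both-granule cells (−1.0, SE 0.051, adjusted p = 1.1e-06). Rrm2, the regulated subunit of ribonucleotide reductase, stood at 132.8, 161.9 and 189.6 in members, against 246.8, 236.5 and 278.0 in both-granule cells (−1.0, SE 0.065, adjusted p = 4.14e-06). The groups did not overlap for either. Ung, uracil-DNA glycosylase, was higher at 1.32 (SE 0.15, adjusted p = 0.000107).

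Against progenitors the cycle genes were close. Of the S phase genes 4 were higher in members and none lower, and of the mitosis genes 1 was higher and 4 lower. Rrm2 was the exception in size: progenitors stood at 57.2, 82.0 and 64.8, below every member library (1.47, SE 0.14, adjusted p = 3.09e-05). Against monocyte-like cells 15 of 19 S phase genes were higher in members, while 11 of 19 mitosis genes were lower and 1 higher, Cdk1. Mki67 was lower there too, at −1.02 (SE 0.093, adjusted p = 0.000186).

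The transcription factors differed from gate to gate in both directions. Cebpe, which is needed for the secondary granule genes, stood at 247.0, 241.6 and 275.6 CPM in members of libraries 1, 2 and 3. It stood at 578.9, 705.1 and 716.1 in both-granule cells, 5.37, 3.73 and 3.30 in progenitors and 19.4, 26.9 and 23.8 in monocyte-like cells. The members did not overlap any of these. Log2 fold changes were −1.72 (SE 0.063, adjusted p = 1.94e-07), 6.25 (SE 0.19, adjusted p = 1.08e-08) and 3.54 (SE 0.12, adjusted p = 6.83e-06). A UMI of Cebpe was seen in 81.6% ± 4.58 of members, 99.0% of both-granule cells, 5.81% of progenitors, 19.7% of monocyte-like cells and 2.28% of B lineage-like cells. After thinning to 2000 UMIs the shares were 36.0%, 70.1%, 0.56%, 4.41% and 0.80% in the same order.

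Gfi1, the repressor that keeps monocyte genes off in granulocyte precursors, stood at 83.8, 80.9 and 89.5 in members. Progenitors had 12.5, 15.7 and 19.8, and monocyte-like cells 5.4, 1.21 and 2.07, with log2 fold changes of 2.61 (SE 0.17, adjusted p = 1.68e-06) and 5.55 (SE 0.28, adjusted p = 1.99e-05). Against both-granule cells, at 63.3, 65.2 and 63.4, Gfi1 was not called (0.07, adjusted p = 0.348). Cebpa averaged 84.3 ± 9.26 in members, 39.5 ± 1.06 in both-granule cells, 40.7 ± 7.09 in progenitors and 64.1 ± 8.39 in monocyte-like cells, and was called higher in members each time (0.77, 1.35 and 0.52). Myb, which sustains progenitor growth, stood at 291.0, 196.1 and 183.4 in members, against 96.2, 79.0 and 69.2 in both-granule cells (1.10, SE 0.067, adjusted p = 2.77e-06).

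Irf8, which directs monocyte and dendritic fate, stood at 83.7, 153.6 and 136.3 in members, against 3.39, 23.7 and 18 in both-granule cells (2.66, SE 0.18, adjusted p = 5.93e-06). It had 0.71 (adjusted p = 0.0631) without the members with monocyte or basophil genes, which Irf8 helped to choose, and 6.59 with predicted doublets removed. It stood at 336.2, 284.1 and 280.2 in progenitors and 622.7, 427.1 and 445.1 in monocyte-like cells, where members were lower by the test (−1.04, adjusted p = 0.00149, and −1.88, adjusted p = 0.00121). Klf4, needed for monocytes, stood at 25.5, 37.6 and 23.6 in members, against 421.4, 336.9 and 336.1 in monocyte-like cells (−3.54, SE 0.18, adjusted p = 1.99e-05). The stem cell factors were low: Meis1 stood at 3.15, 2.89 and 2.26 in members, against 89.4, 64.9 and 105.5 in progenitors (−4.73, SE 0.22, adjusted p = 1.95e-07). Its partner Hoxa9 stood at 9.80, 11.8 and 15.7, against 76.9, 78.3 and 101.1 in progenitors (−2.53, SE 0.16, adjusted p = 1.28e-06). Over the list, 8 of 16 factors were higher and 5 lower than in both-granule cells, 7 of 17 higher and 7 lower than in progenitors, and 6 of 16 higher and 6 lower than in monocyte-like cells. Among all genes tested, 27.5% were higher and 27.1% lower, 16.8% and 15%, and 28.8% and 29.7%, in the same order. The counts against monocyte-like cells, and the lower count against both-granule cells, are near these shares.

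**Figure D3:**
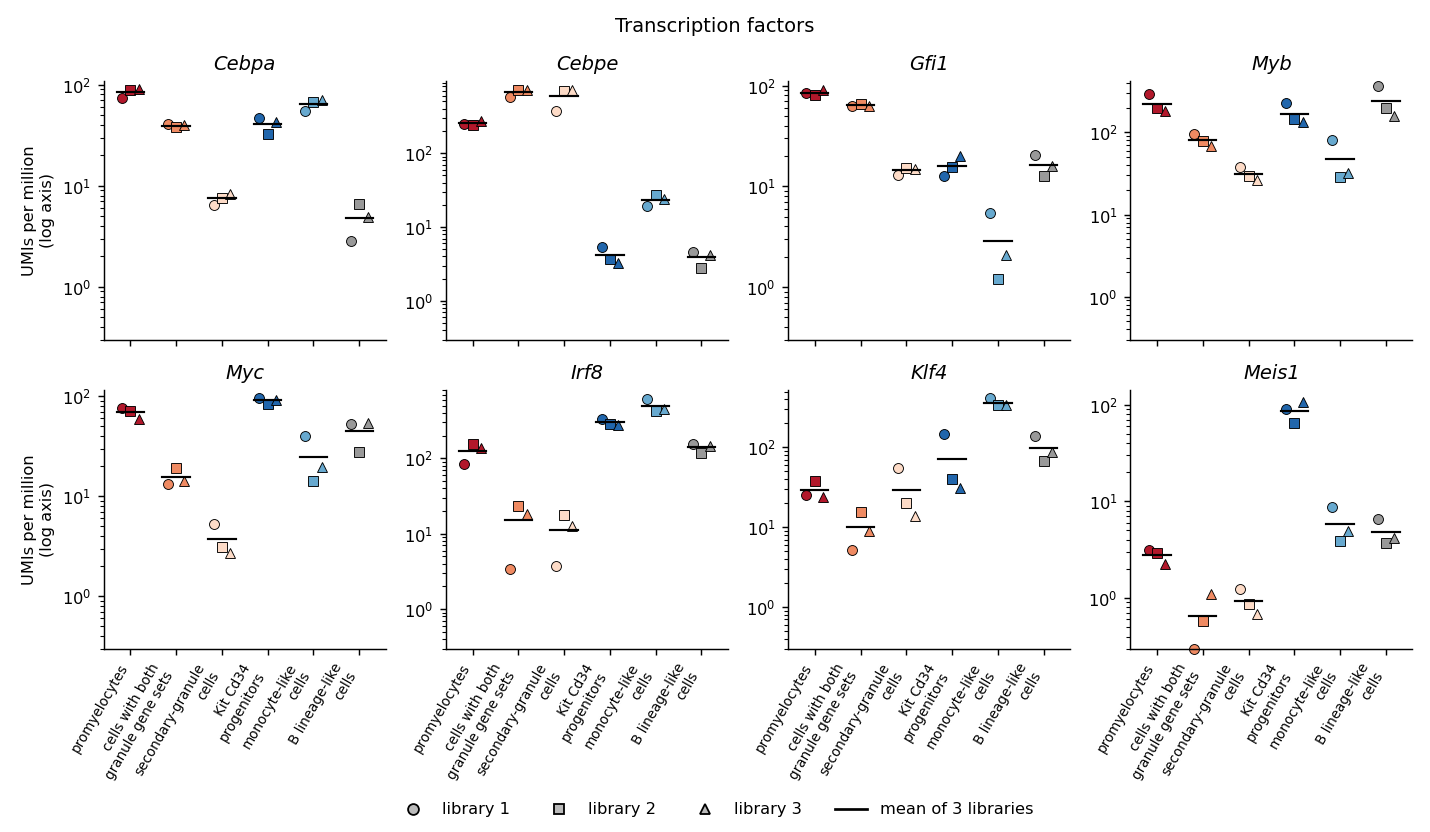
CPM (log axis) of the transcription factor genes Cebpa, Cebpe, Gfi1, Myb, Myc, Irf8, Klf4 and Meis1 in members, both-granule cells, secondary-granule cells, progenitors, monocyte-like cells and B lineage-like cells, with a point for each library, a line at the mean and values under 0.3 drawn at the axis. Gfi1 lies between 80.9 and 89.5 in members, above every library of the other 5 gates, though the test against both-granule cells did not call it.

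The secondary granule and late neutrophil genes outside the rule were low in members. Against both-granule cells all 10 other secondary granule genes were lower (median log2 fold change −4.63), as were 10 of 12 tertiary granule and mature neutrophil genes. These genes accompany Camp, Ngp and Ltf, which set the gates apart. Lcn2, which binds bacterial siderophores, stood at 77.7, 93.7 and 150.8 CPM in members, against 3357, 3740 and 4238 in both-granule cells (−5.52, SE 0.11, adjusted p = 1.28e-08). Chil3, a chitinase-like protein, stood at 162.3, 167.4 and 155.4 in members, against 2291, 2649 and 2526 (−4.28, SE 0.051, adjusted p = 7.07e-10). S100a8 stood at 9586, 7381 and 10010 in members, against 81750, 82490 and 90320 in both-granule cells (−3.59, SE 0.070, adjusted p = 1.28e-08).

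Against progenitors S100a8 was higher at 5.06, as was Wfdc21, a small secreted protein of maturing neutrophils, at 532.3, 463.7 and 550.7 in members and 7.15, 5.97 and 5.49 in progenitors (6.62, SE 0.16, adjusted p = 2.5e-09). The NADPH oxidase, which makes superoxide for myeloperoxidase to use, also stood between the gates. All 6 subunits were lower than in both-granule cells (median −1.58) and all 6 higher than in progenitors (1.57), and 4 were lower and none higher than in monocyte-like cells. Cybb, its catalytic subunit, stood at 91.8, 62.7 and 55.1 in members, against 517.1, 418.9 and 387.3 in both-granule cells (−3.02, SE 0.072, adjusted p = 2.64e-08). Serpinb1a, a cytosolic inhibitor of the granule proteases, stood at 681.9, 658.8 and 711.0 in members, against 1226, 1373 and 1317 in both-granule cells (−1.27, SE 0.046, adjusted p = 1.94e-07). Progenitors had 193.7 ± 59.7 (2.06) and monocyte-like cells 97.1 ± 15.5 (2.96), and members were higher than each.

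Of the cytokine and chemokine receptors tested, 6 of 14 were higher and 6 lower in members than in both-granule cells, 2 of 12 higher and 1 lower than in progenitors, fewer than the share called among all genes, and 1 of 12 higher and 7 lower than in monocyte-like cells. Csf3r, the receptor for granulocyte colony-stimulating factor, averaged 46.2 ± 11.4 CPM in members, 63.5 ± 15.7 in both-granule cells and 31.1 ± 11.4 in progenitors. The library groups overlapped, while within each library members lay below both-granule cells and above progenitors (−0.79, adjusted p = 5.1e-06, and 0.79, adjusted p = 0.0146). Csf2ra, a chain of the receptor for granulocyte-macrophage colony-stimulating factor, stood at 98.0, 126.5 and 156.2 in members, against 37.6, 49.2 and 48.3 in progenitors (1.72, SE 0.14, adjusted p = 7.49e-06). Kit, the stem cell factor receptor, averaged 42.5 ± 10.1 in members and 19.2 ± 3.12 in both-granule cells (0.79), and Cd34 41.0 ± 5.21 and 3.20 ± 2.28 (3.10). Against progenitors these define the other gate and are not read as results. Without those gate genes, all 9 multipotent progenitor genes tested were lower in members than in progenitors (median −3.19). Genes that follow Kit, Cd34 and Flt3 across cells are high in progenitors in part because of how that gate was cut. Against both-granule cells, where the gate genes are counted, 10 of 11 were higher in members (1.52).

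**Figure D4:**
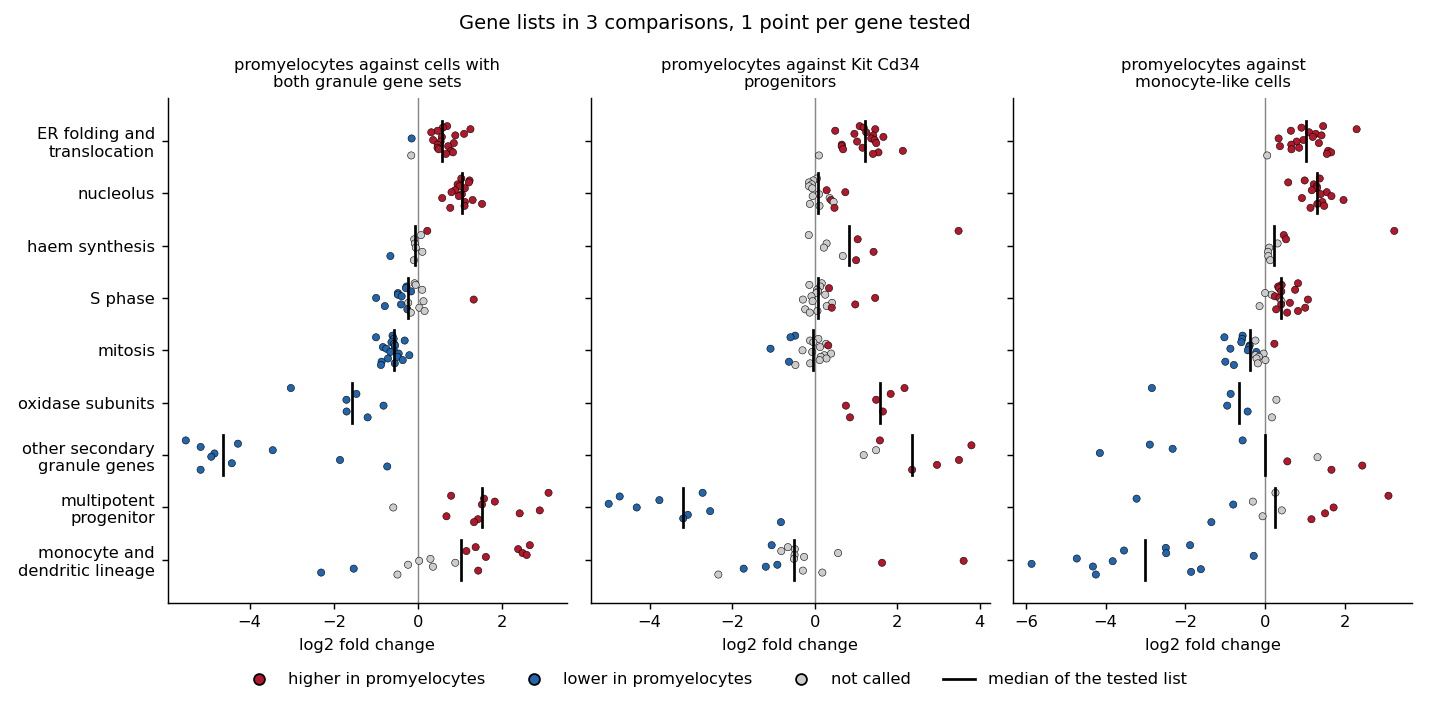
Log2 fold change (horizontal axis) of each gene of 9 lists for members over both-granule cells, progenitors and monocyte-like cells, without the genes that define a gate. Red points were called higher, blue points lower and grey points not called, and a black mark shows the list's median, such as 1.04, 0.08 and 1.31 for nucleolus and ribosome assembly.

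Genes outside the lists added few named groups. Against both-granule cells the named genes with the largest changes included Fabp5, a fatty acid binding protein, at 89.7, 166.0 and 128.4 CPM in members and 10.2, 19.7 and 18.3 in both-granule cells (2.63, SE 0.077, adjusted p = 7.1e-08). Ass1, argininosuccinate synthase, averaged 115.0 ± 35 in members and 15 ± 4.58 in both-granule cells (2.61), and Lgals1, galectin-1, stood at 547.2, 855.6 and 945.0 in members and 76.9, 160.5 and 189.2 in both-granule cells (2.17, SE 0.093, adjusted p = 4.58e-07). In all 3 genes the member libraries lay above the both-granule libraries. Cstdc5 and Stfa1 (−6.77 and −5.22) belong to a family of near-identical stefin genes, so their single values are uncertain. Against progenitors, Fcgr3, a low-affinity Fc receptor for IgG, was higher at 5.83 and Trem3, a myeloid surface receptor, at 5.26. Ctla2a was lower at −5.98, with 11.2, 15.9 and 9.99 in members and 2171, 653.9 and 606.5 in progenitors. Dntt, the template-free polymerase of lymphoid progenitors, was lower at −5.33. Against monocyte-like cells, S100a4 stood at 9.80, 49.3 and 22.9 in members and 1052, 1917 and 1582 in monocyte-like cells (−5.86, SE 0.29, adjusted p = 1.84e-05).

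Not every member fitted the neutrophil label. In 341 members the monocyte genes Irf8, Csf1r, Ly86, F13a1, Ms4a6c, Ccr2 and Klf4 together took at least 0.1% of UMIs, a threshold chosen after the values were seen, and 92 members lay within 20% of it. Over all 26898 kept barcodes, of every cell type, 4750 met the same threshold, so meeting it is not particular to members. These 7 genes took 0 UMIs in 369 members. A further 31 members had at least 0.2% of UMIs from the basophil and mast cell genes Prss34, Mcpt8, Cpa3, Ms4a2 and Fcer1a. That threshold was met by 118 of all 26898 kept barcodes. Within 20% of it lay 9 members, and 932 members had no UMI of these genes. The remaining 1249 members met neither. The subsets are described by values only, since they were made from the counts.

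The members with monocyte genes numbered 40, 154 and 147 in libraries 1, 2 and 3. Gfi1 stood at 10.5, 12.6 and 13.7 CPM in them, against 93.8, 104.9 and 107.2 in the remaining members. Cebpe stood at 27.7, 56.5 and 40.1 in them, against 274.6, 307.1 and 331.9 in the remaining members. Both lie nearer to the values of monocyte-like cells, and to those of progenitors, than to those of the remaining members. Between these gates, by the values given above, Gfi1 was nearer to progenitors and Cebpe nearer to monocyte-like cells. Their Elane was lower, at 4863, 4489 and 5917 against 11010, 10950 and 15490, and Mpo less so, at 6263, 4660 and 6453 against 8531, 7635 and 10590. S100a8 stood at 969.8, 2160 and 1535, against 10770, 9304 and 12100 in the remaining members. Irf8, which chose them, stood at 488.2, 501.8 and 602.8, against 29.5, 37.5 and 29.3. The 4-gene share had a median of 2.08%, 1.83% and 2.21% of UMIs in them and 4.0%, 4.09% and 5.19% in the remaining members, so they lie nearer the member threshold. These 341 members thus held primary granule genes and monocyte genes with little Gfi1 and Cebpe, which goes against the neutrophil label.

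The members with basophil genes numbered 2, 16 and 13. Mcpt8, a basophil protease, stood at 2442, 9238 and 9925 CPM in them, against 16.9, 21.9 and 27.3 in the remaining members. A UMI of Mcpt8 was seen in 36.6% ± 3.04 of all members and 0.72% ± 0.30 of B lineage-like cells, and in 5.54% and 0.29% after thinning to 2000 UMIs. Gata2, a factor of basophils, mast cells and stem cells that did not choose them, stood at 72.9, 194.9 and 204.5. Elane stood at 1458, 3621 and 10850, so library 1, with 2 cells, and library 3 differ widely. Prss34, a basophil protease, was called higher in members in all 3 comparisons. It stood at 3.04, 203.7 and 146.9 in members as a whole and at 0, 0.95 and 0.92 in the remaining members. Prss34 is among the genes that chose the 31 cells, so a low value in the remaining members was set by that choice. Without the members that hold monocyte or basophil genes its change against monocyte-like cells was −5.89, against 1.97 with them. That drop, too, was set by the choice of the members removed.

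**Figure D5:**
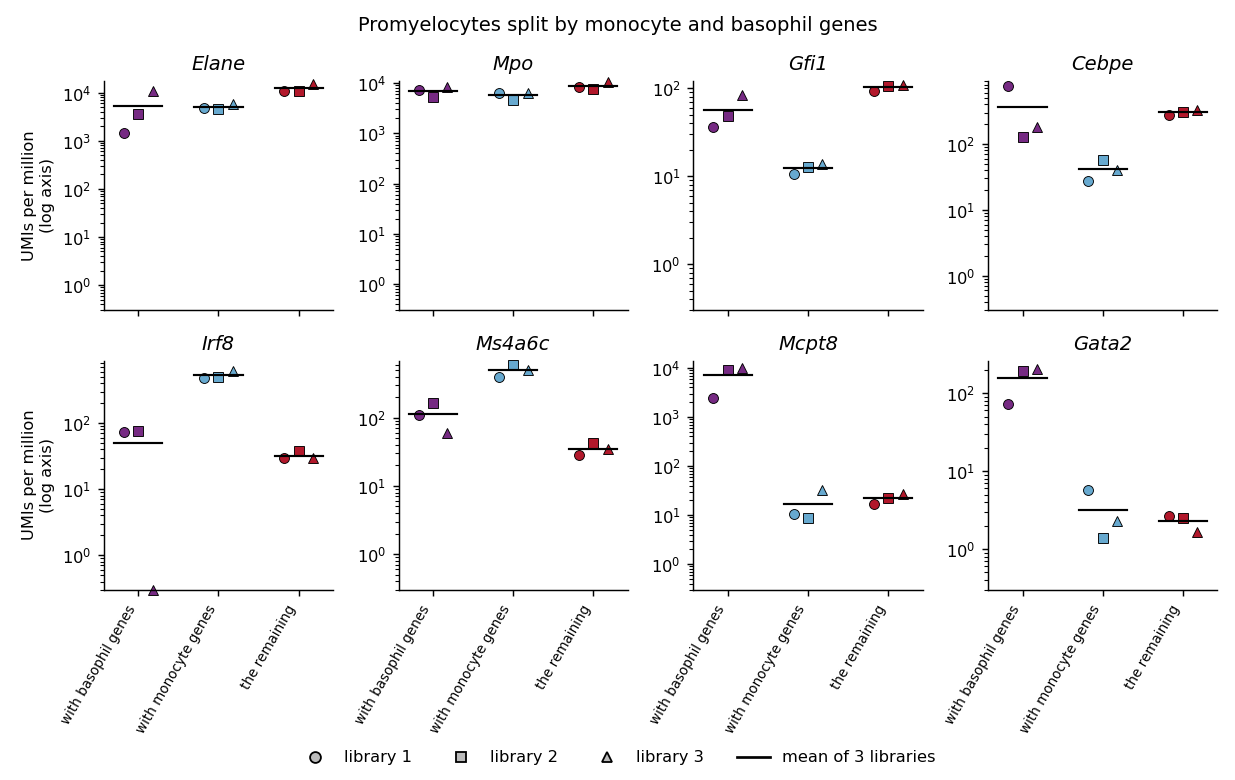
CPM (log axis) of Elane, Mpo, Gfi1, Cebpe, Irf8, Ms4a6c, Mcpt8 and Gata2 in members with basophil genes, members with monocyte genes and the remaining members, with a point for each library. Irf8 was 0 in the basophil subset of library 3 and is drawn at the axis, and Gfi1 lies at 10.5 to 13.7 with monocyte genes and 93.8 to 107.2 in the remaining members.

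Elane itself divided the members a second way. In 108 members (12, 52 and 44 in libraries 1, 2 and 3) Elane gave under 10% of the UMIs of the 4 genes, against a median of 27.6%, 25.3% and 29.4% over all members. Of these 108 members, 45 were among those with monocyte genes and 21 among those with basophil genes. Elane stood at 823.4, 868.5 and 847.0 CPM in them by construction, while Mpo stood at 5576, 4478 and 5793, Prtn3 at 4204, 5003 and 4417 and Ctsg at 2524, 3667 and 3385. Library 1 held under 20 Elane-low cells and was left out of the test, which rests on libraries 2 and 3 with 1 residual degree of freedom. It called 17.5% of the genes (7.53% higher and 9.94% lower in Elane-low members). DESeq2 called 586 and a fit without the block 591 of them in place of 1925, so single p-values are not given.

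Elane-low members differed from Elane-high members list by list. Of 12 multipotent progenitor genes 8 were higher and none lower in Elane-low members (median log2 fold change 1.46), and of 15 monocyte and dendritic genes 9 were higher and 4 lower (0.83). Of the tertiary granule and mature neutrophil genes 3 of 11 were higher and 4 lower. Of the B lineage genes none was higher and 4 of 7 were lower, and 0 of 6 with predicted doublets removed. All 9 basophil, mast and eosinophil genes were higher (median 5.05), and they summed to 469.9, 5867 and 6281 CPM in Elane-low members of libraries 1, 2 and 3, against 73.4, 68.8 and 87.7 in Elane-high members. The 1, 12 and 8 Elane-low members with basophil genes, which some of these genes chose, carried most of that sum. Without members with basophil genes, an alternative chosen after seeing the data, it was 159.9, 369.7 and 250.2 in Elane-low members, against 33.5, 49.1 and 67 in Elane-high members. Of the 7 list genes then tested 6 were higher (median 2.36), while the multipotent progenitor count was again 8 of 12. Cd34 stood at 286.9, 148.9 and 165.6 CPM in Elane-low members, against 39.1, 33.5 and 29.6 in Elane-high members. Gfi1 stood at 8.32, 15.6 and 10.7, against 85.9, 85.9 and 93.0 in Elane-high members, and Cebpe at 66.5, 22.0 and 59.1, against 252.1, 258.2 and 285.4. Irf8 stood at 320.2, 293.5 and 316.1, against 77.1, 143.1 and 128.1. Library 1, which the test did not use, showed the same side for all 4 genes.

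Of the cargo list 8 of 10 genes were lower in Elane-low members (median −1.29), of haem synthesis 6 of 8, of the oxidase 5 of 6 and of endoplasmic reticulum folding 13 of 20, with none higher in any of these lists. With predicted doublets removed, 2 of the 8 haem synthesis genes were lower and 1 higher. Ms4a3 stood at 411.7, 421.9 and 376.1 in Elane-low members, against 1852, 1668 and 1960 in Elane-high members, and Alas1 at 83.2, 131.2 and 132.5, against 316.6, 369.7 and 338.3. The groups did not overlap for either gene. With the threshold for the 4 genes at 2%, only 1, 1 and 3 Elane-low members were left in the 3 libraries, so Elane-low members lie close to the member threshold. Their 4-gene share had a median of 1.33%, 1.305% and 1.35% of UMIs in libraries 1, 2 and 3. In Elane-high members it was 3.83%, 3.53% and 4.74%. A gene that follows the rule genes across cells, as granule cargo may, therefore differs here in part because of how the split was cut.

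Markers of other cell types in the members were measured beside these results, and their part in them was not tested. The 9 erythroid genes summed to 1272, 5201 and 2543 CPM in members, 126.1, 10140 and 3378 in both-granule cells and 355.9, 524.1 and 729.5 in progenitors. All 9 were lower in Elane-low than in Elane-high members. With predicted doublets removed 4 of the 8 still tested were lower and Car2 had 0.33, and with the split at an Elane share of 20% 4 of 9 were lower, while Hbb-bs and Hba-a2 had 0.063 and 0.33. The 8 connective tissue genes summed to 2185, 622.9 and 1676 in members, 1687, 180.4 and 2627 in both-granule cells and 400.6, 992.4 and 201.1 in progenitors. The 4 nucleus pulposus markers summed to 39.0, 15 and 12.4 in members, and the 8 B lineage genes to 70.5, 135.3 and 121.7. Library 2 had the lowest connective tissue sum in members and in both-granule cells. Single genes varied between libraries in different orders: Acan, the aggrecan core protein, stood at 70.5, 2.49 and 0.89 in members of libraries 1, 2 and 3, and Col1a1, a chain of type I collagen, at 71.8, 182 and 692.5. No marker of these 4 lists was at 0 in the members as a whole.

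Immediate early and dissociation response genes, a list that holds Fos, Egr1 and Hspa1a, were measured too. The 10 genes summed to 3575, 1697 and 2018 CPM in members, 3238, 1830 and 1999 in both-granule cells, 10300, 3490 and 3816 in progenitors and 10230, 5484 and 5963 in monocyte-like cells. Library 1 was the highest in each gate. Members were lower by the test for 7 of 10 against both-granule cells, of which Dnajb1, Fos and Fosb have the other sign on the plain CPM scale, 8 of 10 against progenitors and all 10 against monocyte-like cells, and all 10 were higher in Elane-low than in Elane-high members, of which Atf3 had −0.081 among barcodes of at most 5% mitochondrial UMIs. Predicted doublets made up 9.81% of members, against 22.3% of both-granule cells. With predicted doublets removed, 6003 genes were called between these gates, against 5839 with them.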

How the data were processed

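Cells of 3 pools of mouse discs were profiled with the 10x Genomics Chromium 3′ kit, per the labels' protocols. The deposited matrices hold counts, that is whole UMIs per gene and barcode, not normalized. Cell Ranger 3.0.2, Seurat 4 and mm10 are named in the submitters' processing notes with no role, while the file headers name 3.0.1 for library 1 and 6.0.0 for libraries 2 and 3. Other parameters are not given in the sources used here. Library 1 lists other gene models than libraries 2 and 3, so the 30406 shared gene IDs were used, which hold 99.9%, 99.6% and 99.6% of UMIs.

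The members, gates and the 25 gene lists were chosen with earlier results of these data known. Counts were read in Python 3.11.15 with scipy 1.17.1 and pandas 2.3.3. Doublets were predicted with the Scrublet of scanpy 1.11.5 at 0.8% per 1000 barcodes and removed only as an alternative. UMIs were summed per library and gate, in libraries with at least 20 cells of both gates, and tested with edgeR 4.0.16 in R 4.3.3 (filterByExpr, TMM, quasi-likelihood test, library as block, Benjamini-Hochberg adjustment). The replicate number pairs the sums because both come from the same pool of animals, as the labels state. The quasi-likelihood test gives no SE, and the SE printed is the absolute log2 fold change over the square root of F. The test was also run on simulated data for members against both-granule cells (10753 genes). There it called 55% of genes changed 2-fold and 100% of those changed 4-fold, 100 each, with 7 false calls. In the measured data it called 54.6% of genes in this comparison, among them Alas1 and Xbp1 with changes far smaller than 2-fold. The simulated shares and false calls therefore do not give the power or the error rate of the test on the measured data.

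The text names, for each comparison, genes from the 10 with the greatest and the 10 with the least log2 fold change that passed the test, had the same sign in all libraries tested and averaged 50 CPM or more in the higher gate, and the list members. Genes of the rule, mitochondrial, ribosomal protein, globin and antibody genes and Gm or Rik models took no part in that ranking, and only some of the ranked genes are printed. A few list members are counted but not reported singly here. Alternatives were DESeq2 1.42.0, other normalization, filters, thresholds, doublet removal and leaving out each library.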

Additional observations from a re-analysis of the deposited data

How the results depend on the processing

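In members vs both-granule cells, 5839 genes were called (genes higher 2938, genes lower 2901), in members vs Kit Cd34 progenitors 3330 (1759 and 1571) and in members vs monocyte-like cells 6844 (3373 and 3471). Without the replicate block these became 2314 (1167 and 1147), 1587 (764 and 823) and 4238 (1994 and 2244), and in Elane-low vs Elane-high members 591 (261 and 330) in place of 1925 (830 and 1095). Against both-granule cells without the block, 8 of 20 endoplasmic reticulum genes were called higher and 10 of 19 mitosis genes lower, and in Elane-low members 2 of 20 endoplasmic reticulum genes were lower and 4 of 10 immediate early genes higher. Leaving out each library in turn gave 4813 to 5628 calls against both-granule cells (2279 to 2725 higher and 2394 to 2903 lower). Against progenitors it gave 2334 to 3876 (1193 to 2157 higher and 1141 to 1719 lower), and against monocyte-like cells 4586 to 7518 (1993 to 3724 higher and 2593 to 3794 lower), where the lowest counts are without library 3. The mean member share ran from 5.21% to 6.39% when each library was left out. Under the other choices of cells it was lowest without the monocyte and basophil gene members (4.66%), which that choice takes out. It was 4.86% with the 4-gene share at 2% and highest, at 6.91%, with at least 1000 genes per barcode. For Elane-low vs Elane-high members, DESeq2 called 586 genes (241 higher and 345 lower), and a split at an Elane share of 5% called 1116 (433 and 683). That comparison could not be fitted with the 4-gene share at 2%, with the monocyte and basophil gene members removed, or without library 2 or 3, for want of cells or libraries. Every other count of calls was within 1.5 times its value under the alternatives run. The signs of some called genes turned. With predicted doublets removed, this held for Ccl6 (0.83) in members vs both-granule cells and for Fn1 (−0.40), Col1a1 (−0.12), Col1a2 (−0.12) and Ibsp (−0.39) in members vs progenitors. In Elane-low vs Elane-high members it then held for Bglap (0.19), Retnlg (−0.50), Cd74 (0.26), Car2 (0.33), Cd79a (0.60), Ebf1 (0.091), Col1a2 (0.19) and Col2a1 (−0.42). Without the monocyte and basophil gene members, Klf4 (−0.50) and Il6ra (−0.093) turned against both-granule cells, Ctsc (−0.29) against progenitors and Prss34 (−5.89) against monocyte-like cells. Klf4 and Prss34 helped to choose the members removed, so their drop was set by that removal. Against monocyte-like cells Prss34 also turned with the 4-gene share at 2% (−5.77). With doublets by Scrublet's own threshold removed, Cd74 (0.52) turned against both-granule cells, and Col2a1 (−0.67), Bgn (−1.51) and Ibsp (−2.33) in Elane-low members. In Elane-low vs Elane-high members a split at 5% turned Cst3 (−0.095), Klf4 (−0.076), Cdk1 (0.040), F13a1 (−0.083), Col2a1 (−2.47), Bgn (−2.08) and Ibsp (−2.46), and one at 20% Hbb-bs (0.063), Hba-a2 (0.33), Vpreb1 (0.038), Igll1 (0.21), Col2a1 (−1.51), Bgn (−1.35) and Ibsp (−1.86). There Atf3 (−0.081) turned at 5% mitochondrial UMIs, Ibsp (−0.33) in DESeq2, Col1a2 (0.16) without shared barcodes and Il1b (−2.04) without the basophil gene members. The causes were not tested. Removal of shared barcodes, of the monocyte and basophil gene members or the basophil gene members alone, and by Scrublet's own threshold were chosen after seeing the data. The depth of 152 progenitors and 108 Elane-low members limits what can be shown for genes of a few CPM.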
